A study of Arabidopsis thaliana with 6 samples.

Results

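Expansins are small secreted proteins that loosen the plant cell wall at acid pH, without cutting its polymers, and so let a cell enlarge under turgor. Arabidopsis has alpha-expansins (EXPA), beta-expansins (EXPB) and the smaller expansin-like groups (EXLA and EXLB), for which wall loosening has not been shown in the same way. EXPA7 and EXPA18 are expressed in root hair cells and are used as markers of them, while several other alpha-expansins are expressed in growing leaves, stems and roots. Root hairs are tip-growing outgrowths of epidermal cells whose growth depends on the actin cytoskeleton, and mutants of the vegetative actin gene ACT2 are known for root hair defects.

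The expansin genes described here are the probe sets of the Affymetrix ATH1 array that the platform annotation gives to 1 gene with a symbol of EXP followed by A, B, L or a digit. This rule found 14 genes, of 13513 probe sets with 1 gene symbol and 22746 probe sets tested. They comprise 10 alpha-expansins (EXPA4, EXPA7, EXPA8, EXPA9, EXPA15, EXPA16, EXPA18, EXPA20, EXPA21 and EXPA24) and 4 beta-expansins (EXPB1, EXPB2, EXPB3 and EXPB5). Of 36 expansin and expansin-like loci in the family, another 4 are expansin-like genes with a probe set of their own, 4 share a probe set with a relative, and 14, including EXP3, were not analysed here.

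RNA came from whole seedlings of the actin2-5 mutant, labelled wavy, and of wild type Columbia, with 3 biological replicates of each genotype and 1 array per replicate. Seedlings of both genotypes were harvested after 8 days on diluted Murashige and Skoog medium. The labels give the ecotype of the wild type but not that of the mutant, and describe 1 mutant allele. The mutated gene, ACT2, was not analysed here, which leaves the genotype labels unchecked. In RNA from whole seedlings, fewer cells of a type and less RNA per cell cannot be told apart.

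Expression is given on the log2 scale, as RMA values, a method that evens out the arrays at the level of single probes. The values per probe set still differed slightly, with lower quartiles of 4.49 to 4.5 on actin2-5 arrays and 4.51 to 4.58 on wild-type arrays. Array medians lay between 6.42 and 6.46, and correlations between arrays over all tested probe sets were 0.9967 to 0.998 within actin2-5 and 0.9938 to 0.9954 within wild type. The array also carries a control for 25S ribosomal RNA, at 10.63, 7.75 and 9.82 on the actin2-5 arrays in order of replicate, against 8.21, 8.13 and 8.2 on the wild-type arrays. Its signal therefore separates actin2-5 arrays 1 and 3 from the rest. Fits with this value as a covariate, and without actin2-5 arrays 1 and 3, are given below. The source of this signal was not tested. Over all probe sets, 253 were called lower in actin2-5 and 497 higher (limma, Benjamini-Hochberg adjusted p under 0.05).

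Both root hair expansins fell in actin2-5, with the largest log2 changes among the 14 expansin genes. EXPA18 (AT1G62980, on chromosome 1) read 6.31, 6.29 and 6.24 in actin2-5, against 6.83, 7.39 and 7.47 in wild type. The genotypes did not overlap, and the 3 mutant values lay far closer together (SD 0.036) than the wild-type values (SD 0.349). The log2 change was -0.95 ± 0.15 (SE, n = 3 per group), a level 1.93-fold lower in actin2-5 (limma adjusted p = 0.00636, 95% interval of the log2 change -1.28 to -0.62).

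EXPA7 (AT1G12560, also on chromosome 1) read 6.85, 6.78 and 6.69 in actin2-5, against 7.28, 7.69 and 7.92 in wild type. Wild-type replicate 1 was again the lowest wild-type array, and it still lay above every mutant array. The log2 change was -0.86 ± 0.14 (SE, n = 3 per group), 1.81-fold lower in actin2-5 (limma adjusted p = 0.00909, 95% interval -1.17 to -0.54). SDs were 0.08 in actin2-5 and 0.324 in wild type. Among the 132 single-gene probe sets called lower, EXPA18 had the 13th and EXPA7 the 17th largest fall.

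Wild-type arrays 1 and 3 moved the size of both falls, in opposite directions. Without wild-type array 1 the log2 changes were -1.15 for EXPA18 and -1.03 for EXPA7 (limma adjusted p = 0.000418 and 0.00129). Without wild-type array 3 they were -0.83 and -0.71 (limma adjusted p = 0.0255 and 0.0253). EXPA7 missed the threshold without actin2-5 replicate 2 or 3 (adjusted p = 0.0545 and 0.0576), at log2 changes of -0.86 and -0.815. With the 25S value as a covariate both missed it (adjusted p = 0.062 for EXPA18 and 0.0769 for EXPA7), at log2 changes of -0.95 ± 0.20 and -0.87 ± 0.19.

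**Figure D1:**
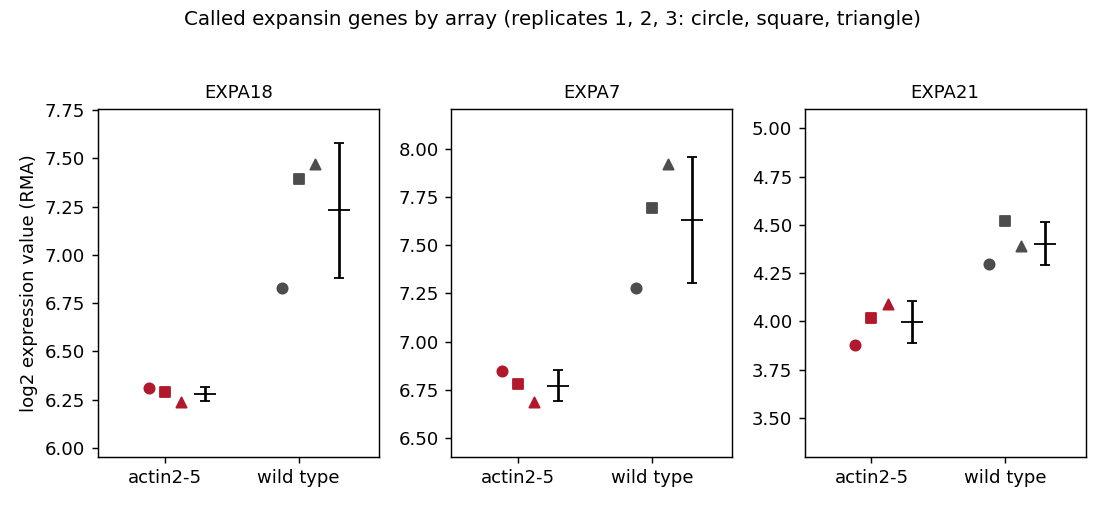
Log2 expression values of the 3 called expansin genes on each array, actin2-5 on the left and wild type on the right of each panel; circles, squares and triangles are replicates 1, 2 and 3, and the bars give the mean ± SD (n = 3). Each panel spans the same height on the log2 scale, and in EXPA18 and EXPA7 the mutant arrays lie close together below a wider spread of wild-type arrays.

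The third called member was EXPA21, which belongs to an uninterrupted run of 6 alpha-expansin genes on chromosome 5, in the order EXPA21, EXPA22, EXPA23, EXP26, EXPA25 and EXPA24. EXPA21 (AT5G39260) read 3.88, 4.02 and 4.09 in actin2-5, against 4.30, 4.52 and 4.39 in wild type. The groups did not overlap, and the log2 change was -0.41 ± 0.09 (SE, n = 3 per group; limma adjusted p = 0.0454). The probe set is dim: its mean of 4.2 lies under the lower quartile of all probe sets, 4.523, where RMA pulls values together. Its call ended with repeated quantile normalization (adjusted p = 0.0657), with the 25S covariate (adjusted p = 0.292) and without any single array other than wild-type array 1 (adjusted p = 0.101 to 0.172).

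The other genes of this run did not pass the test. EXPA24, at its far end, read 4.25, 4.15 and 4.26 in actin2-5, against 4.23, 4.31 and 4.34 in wild type, and its log2 change was -0.07 ± 0.08 (limma adjusted p = 0.74). The probe set that EXPA25 shares with EXPA23 was at -0.16 ± 0.09 (adjusted p = 0.412), and the one that EXP26 shares with EXPA22 at -0.04 ± 0.09 (adjusted p = 0.87). A probe set of several genes cannot say which of them it reads. Whether EXPA21 differs from its neighbours in its change was not tested.

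Of the 10 alpha-expansins, 3 were called, all lower, against 1.11% of all probe sets. An unadjusted p under 0.05 was found for 6 of the 10, against 15.3% of all probe sets, and 3 of these 6 did not pass the adjusted threshold. EXPA15 read 8.96, 8.36 and 8.53 in actin2-5, against 9.36, 9.11 and 8.84 in wild type. Its highest mutant array lay above its lowest wild-type array, and the log2 change was -0.49 ± 0.16 (SE, n = 3 per group; limma adjusted p = 0.173, 95% interval -0.85 to -0.12). EXPA8, an expansin gene induced by brassinosteroid, read 8.41, 8.10 and 8.08 in actin2-5, against 8.76, 8.30 and 8.59 in wild type. Its groups also overlapped, at a log2 change of -0.35 ± 0.13 (adjusted p = 0.221).

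EXPA4 read 9.96, 9.68 and 9.80 in actin2-5, against 10.18, 10 and 10.01 in wild type. Its groups did not overlap, but the difference was small, at a log2 change of -0.25 ± 0.10 (limma adjusted p = 0.253). EXPA15, EXPA8 and EXPA4 were each highest on the array of replicate 1 in both genotypes. EXPA20 read 5.89, 5.90 and 6.04 in actin2-5, against 5.94, 5.98 and 6.28 in wild type (-0.12 ± 0.11, adjusted p = 0.65).

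EXPA9 and EXPA16 had log2 changes near 0. EXPA9 read 8.36, 7.88 and 7.96 in actin2-5, against 7.99, 8.08 and 7.98 in wild type, so 1 mutant array was the highest and another the lowest. Its log2 change was 0.05 ± 0.12, with a 95% interval of -0.22 to 0.32 (limma adjusted p = 0.898), and its sign turned with array weights and with the 25S covariate. EXPA16 read 5.55, 5.41 and 5.36 in actin2-5, against 5.43, 5.39 and 5.47 in wild type. Its change of 0.01 ± 0.09 had an interval of -0.18 to 0.20 (adjusted p = 0.973), and its sign turned when arrays were centred on their medians, with array weights and with the 25S covariate.

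The beta-expansins are the branch that also holds the group of grass pollen allergens. Of the 4 measured here, 0 passed the threshold in limma, against 3.3% of all probe sets. An unadjusted p under 0.05 was found for 2, against 15.3% of all probe sets. Whether the alpha and beta branches differ was not tested. EXPB1 read 7.93, 7.54 and 7.44 in actin2-5, against 8.03, 8.07 and 8.04 in wild type. Every mutant array lay below the wild-type arrays, which differed from each other by very little (SD 0.021), and the log2 change was -0.41 ± 0.12 (SE, n = 3 per group; limma adjusted p = 0.113). Without actin2-5 replicate 1, the mutant array nearest to wild type, EXPB1 passed the threshold at a log2 change of -0.56 (adjusted p = 0.0159).

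EXPB3 read 10.11, 9.62 and 9.53 in actin2-5, against 10.42, 9.98 and 10.12 in wild type. Its groups overlapped, since mutant replicate 1 lay above wild-type replicate 2, and the log2 change was -0.42 ± 0.16 (limma adjusted p = 0.229). EXPB2 had the largest SD within actin2-5 among the members (0.428), with 5.28, 5.56 and 4.72 in actin2-5 against 5.17, 5.60 and 5.09 in wild type. Its change of -0.10 ± 0.20 (adjusted p = 0.87) turned sign with the 25S covariate, and its interval of -0.54 to 0.34 allows a change in either direction. EXPB5, dim at a mean of 4.18, read 4.41, 4.06 and 4.07 in actin2-5, against 4.1, 4.24 and 4.2 in wild type, with equal means.

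**Figure D2:**
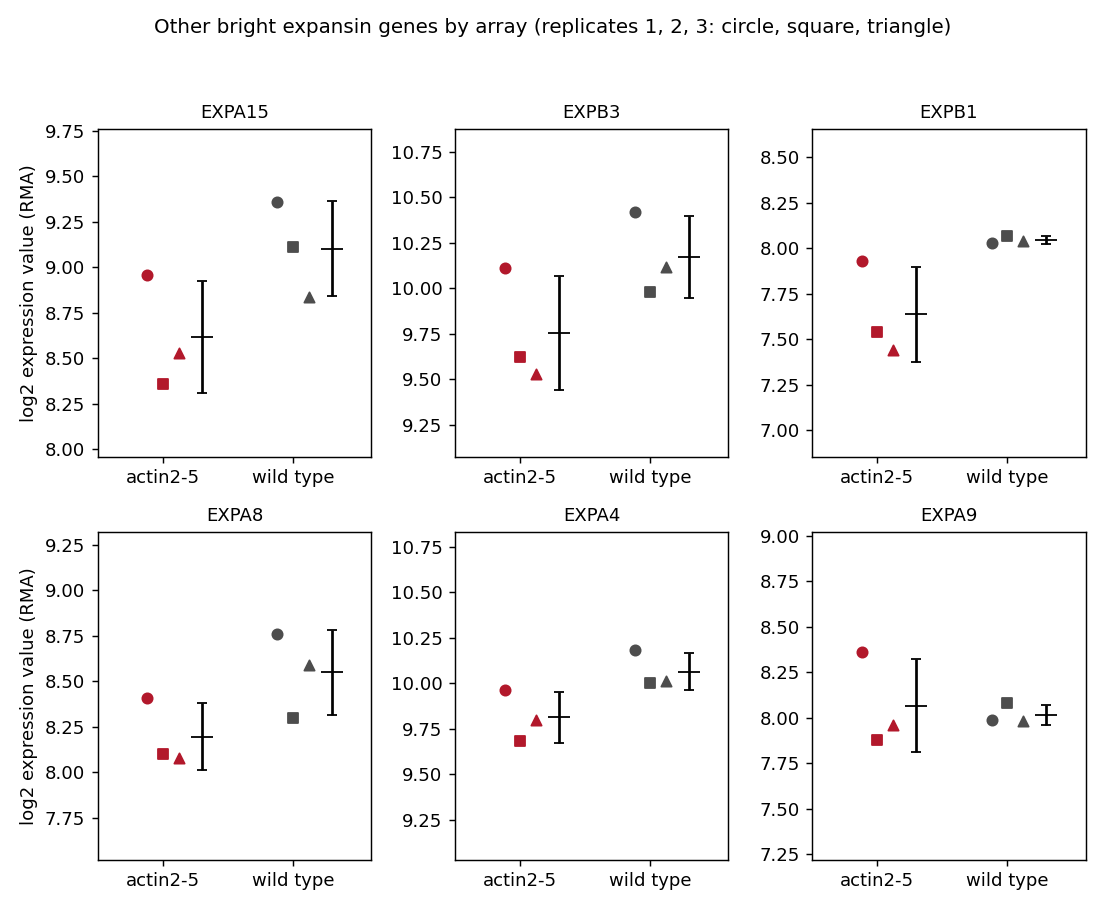
Log2 expression values of 6 expansin genes outside the called ones on each array, actin2-5 on the left and wild type on the right of each panel; circles, squares and triangles are replicates 1, 2 and 3, and the bars give the mean ± SD (n = 3). EXPB1 and EXPA4 show groups that do not overlap, EXPA15, EXPB3 and EXPA8 overlap by 1 array, and the wild-type arrays of EXPA9 lie within the range of its mutant arrays.

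Over the family, 3 of 14 members were called lower and 0 higher, against 1.11% of all probe sets called lower and 2.18% called higher in limma. An unadjusted p under 0.05 was found for 8 members, against 15.3% of all probe sets. The groups did not overlap, with actin2-5 lower, in 5 of 14 members, against 10.8% of all probe sets. The median log2 change of the members was -0.30, against -0.03 over all probe sets tested, and 11 of 14 changes were below 0, against 57.5% of all probe sets. The 14 genes were chosen with earlier results of these arrays known, and genes of 1 family on the same arrays are not independent, so these counts describe the members and carry no test. The count of called members was 1 without actin2-5 replicate 2 or without replicate 3, and 0 with the 25S covariate, which left 283 calls over all probe sets; 8 members then had an unadjusted p under 0.05.

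**Figure D3:**
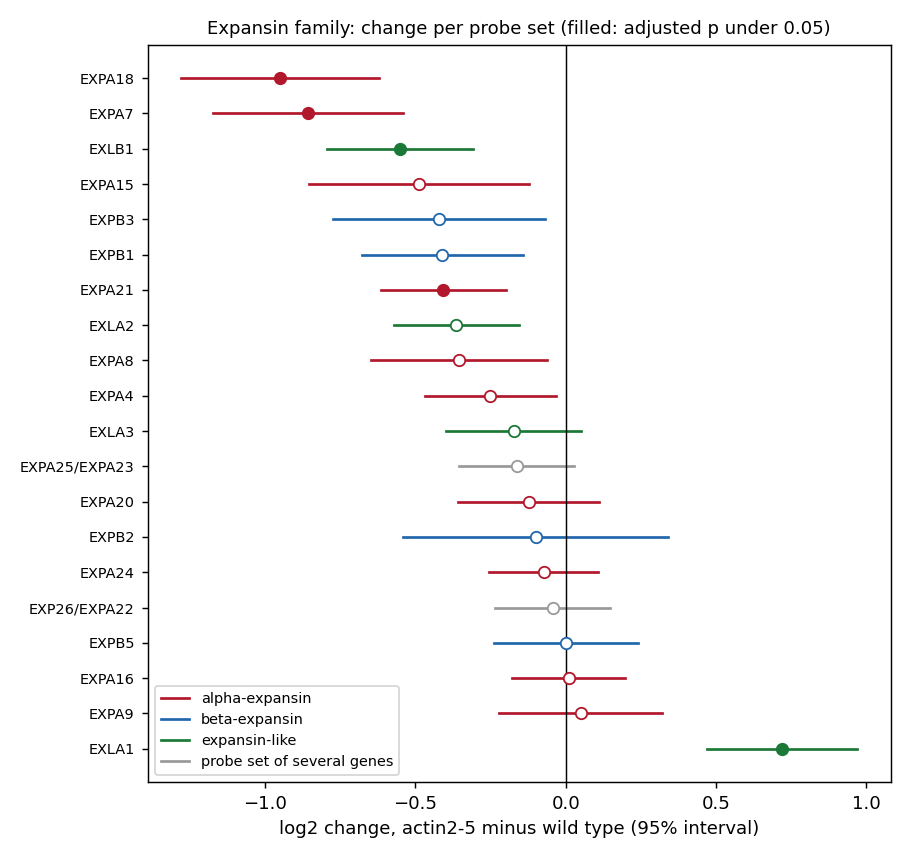
Log2 change per expansin probe set, actin2-5 minus wild type, with the 95% interval from limma (n = 3 per group); alpha-expansins are red, beta-expansins blue, expansin-like genes green and probe sets of several genes grey, and filled points passed an adjusted p of 0.05. EXPA18 and EXPA7 stand at the top with the largest falls, and EXLA1 is the one filled point to the right of 0.

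EXPA7 and EXPA18 were set against the other 12 members array by array, as the mean deviation from each gene's wild-type mean. The pair was at -0.85, -0.90 and -0.97 on actin2-5 arrays 1, 2 and 3, against -0.38, 0.11 and 0.27 on wild-type arrays 1, 2 and 3. The other members averaged -0.05, -0.28 and -0.31 on the actin2-5 arrays, against 0.02, -0.0028 and -0.02 on the wild-type arrays. The pair was thus low on all 3 mutant arrays, while the average of the others was close to wild type on mutant array 1 only. Single genes among the others ranged there from -0.52 for EXPA21 to 0.34 for EXPA9. The 25S value was 10.63, 7.75 and 9.82 on actin2-5 arrays 1, 2 and 3, and its part in this pattern was not tested.

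On average the pair changed by 0.69 more than the other members on the log2 scale (-0.90 against -0.21), and by 0.55 to 0.89 with 1 array left out. All 12 of the other members had a 95% interval that ended above the change of EXPA7, but 6 of these intervals overlapped that of EXPA7. Members are not replicates of a condition, and the difference between the pair and the others was not tested. Of the 14 members, 6 read below the wild-type range on actin2-5 array 1, and 12 did so on each of arrays 2 and 3. Of all probe sets, 25.9%, 27.8% and 30.9% read below their wild-type range on actin2-5 arrays 1, 2 and 3.

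**Figure D4:**
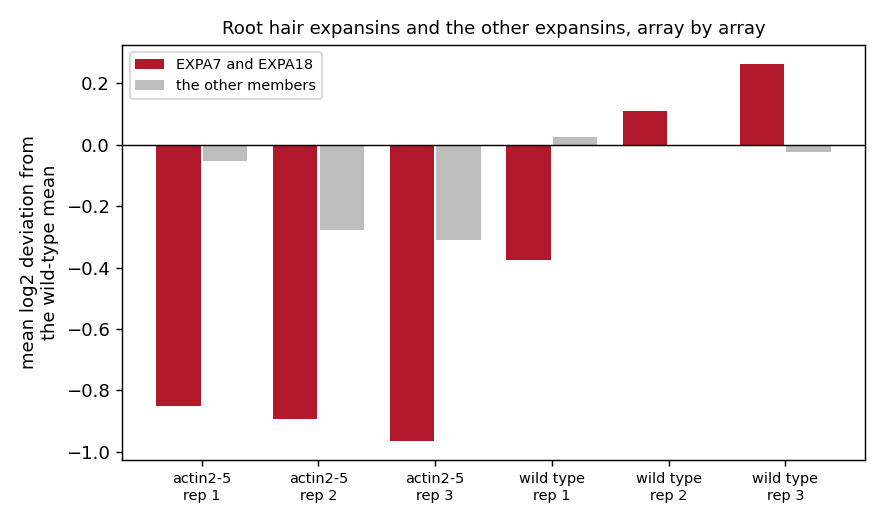
Mean log2 deviation from each gene's wild-type mean, for EXPA7 and EXPA18 (red) and for the other 12 members (grey) on each array, actin2-5 arrays on the left; bars start at 0 and carry no error, since genes are not replicates. The red bars lie between -0.97 and -0.85 on the mutant arrays and between -0.38 and 0.27 on the wild-type arrays.

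The expansin-like genes, outside the symbol rule, went both ways. EXLA1 (AT3G45970) rose, with 8.25, 8.59 and 8.61 in actin2-5, against 7.72, 7.69 and 7.88 in wild type. Every mutant array lay above every wild-type array, and the log2 change was 0.72 ± 0.11 (SE, n = 3 per group), 1.65-fold higher (limma adjusted p = 0.00636). The call held with the 25S covariate, at 0.83 ± 0.13 (adjusted p = 0.0201), and ended without actin2-5 replicate 2 (0.67, adjusted p = 0.0506).

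EXLB1 (AT4G17030) fell, with 7.10, 7.16 and 6.88 in actin2-5, against 7.46, 7.77 and 7.56 in wild type. The groups did not overlap, and the log2 change was -0.55 ± 0.11 (limma adjusted p = 0.0217). The call ended with the 25S covariate (-0.49, adjusted p = 0.188) and without any single array other than wild-type array 1 (adjusted p = 0.0528 to 0.122). EXLA2 read 6.65, 6.83 and 6.66 in actin2-5, against 6.96, 7.08 and 7.19 in wild type, without overlap, at -0.36 ± 0.09 (adjusted p = 0.0719). It passed the threshold without wild-type replicate 1 (adjusted p = 0.0493). EXLA3, whose locus lies close to that of EXLA1, read 4.60, 4.92 and 4.61 in actin2-5, against 4.90, 4.90 and 4.85 in wild type, at -0.17 ± 0.10 (adjusted p = 0.472).

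With the 4 expansin-like genes counted, 5 of 18 genes were called, 4 lower and 1 higher, against 3.3% of all probe sets, and the median log2 change was again -0.30.

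**Figure D5:**
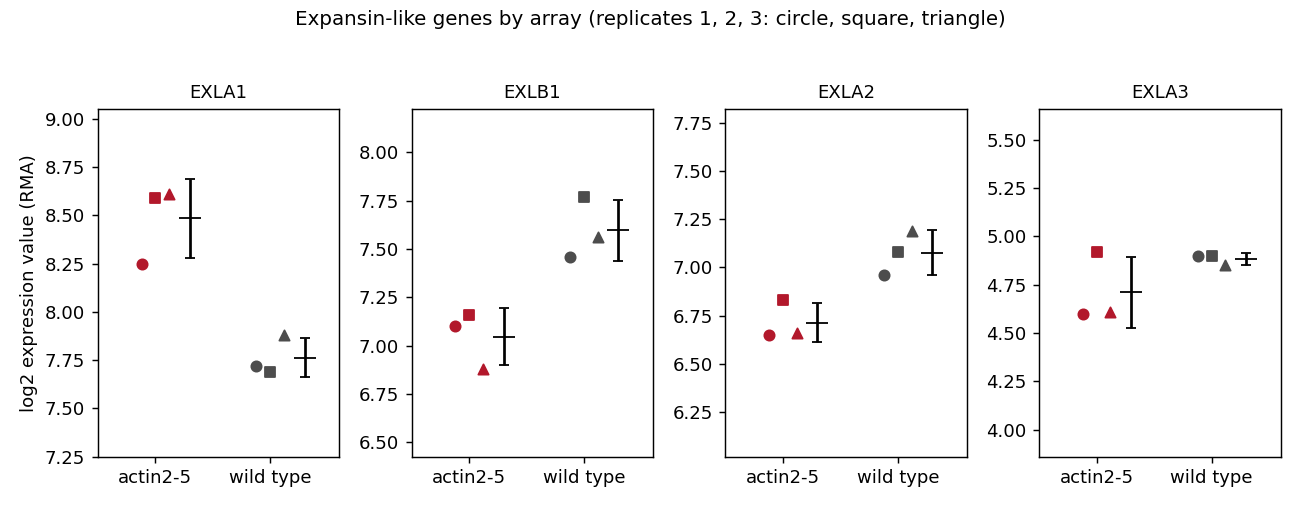
Log2 expression values of the 4 expansin-like genes on each array, actin2-5 on the left and wild type on the right of each panel; circles, squares and triangles are replicates 1, 2 and 3, and the bars give the mean ± SD (n = 3). EXLA1 is higher on all 3 mutant arrays, EXLB1 and EXLA2 are lower on all 3, and EXLA3 overlaps.

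Other genes of root hairs and of wall loosening were sparsely covered by the annotation used. Here and below, a listed gene counts as measured where the annotation gives a probe set to it alone. The annotation does not list 38.4% of the tested probe sets, so these counts do not tell which genes the array lacks. Of 36 listed root hair growth genes besides the expansins, 3 were measured and 0 were called in limma, with 0 at an unadjusted p under 0.05. Of all probe sets, 3.3% were called and 15.3% had an unadjusted p under 0.05. The xyloglucan endotransglucosylase gene XTH26, which was dim (4.40 on average in wild type), was at -0.15 ± 0.10 (adjusted p = 0.553). FER, the receptor kinase FERONIA, had almost equal means of 9.86 in both genotypes, and the sign of its change turned when single arrays were left out.

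TRY, a MYB-type repressor known for patterning leaf hairs and root hairs, was the 1 measured gene of 6 listed for root epidermal fate. It read 5.43, 5.49 and 5.25 in actin2-5, against 5.95, 5.88 and 5.69 in wild type. The groups did not overlap and it fell by 0.45 ± 0.10 on the log2 scale (limma adjusted p = 0.0389), a call that ended with the trended robust prior (adjusted p = 0.0512), without any one of the actin2-5 arrays (adjusted p = 0.0875 to 0.203), when wild-type replicate 1 or 2 was left out (adjusted p = 0.0835 or 0.0887) and with the 25S covariate (adjusted p = 0.273).

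Xyloglucan endotransglucosylases cut and rejoin the xyloglucan that tethers cellulose, and act beside expansins in growing walls. Of 33 listed, 10 were measured, and 2 were called lower and 0 higher, against 1.11% and 2.18% of all probe sets. An unadjusted p under 0.05 was found for 4, against 15.3% of all probe sets. XTH33 fell by 0.61 ± 0.09 and XTH21 by 0.47 ± 0.10 on the log2 scale (limma adjusted p = 0.00553 and 0.0273), while XTH32 was at -0.36 and XTH18 at 0.25. The call of XTH21 ended with the 25S covariate and without any one of actin2-5 replicates 2 and 3 and wild-type replicates 1 and 3. The proton pumps of the plasma membrane, which acidify the wall and so activate expansins, were not analysed here.

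Marker genes of root and leaf were read beside the expansins. Of 21 listed root tissue markers 2 were measured, and 0 were called in limma, against 3.3% of all probe sets. An unadjusted p under 0.05 was found for 1, against 15.3% of all probe sets. PYK10, the main protein of root endoplasmic reticulum bodies, read 13.38, 13.40 and 13.46 in actin2-5, against 13.31, 13.37 and 13.28 in wild type (0.09 ± 0.08, adjusted p = 0.644). NAI2, which is needed to form the same bodies, read 10.07, 9.89 and 9.97 in actin2-5, against 10.16, 10.12 and 10.47 in wild type (-0.27 ± 0.11, adjusted p = 0.255).

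The mean level of both root markers was 11.645 to 11.725 in actin2-5 and 11.735 to 11.875 in wild type. Of 12 listed leaf and photosynthesis markers 5 were measured, and 0 were called in limma, against 3.3% of all probe sets. An unadjusted p under 0.05 was found for 1, against 15.3% of all probe sets. Their mean level was 12.878 to 12.928 in actin2-5 and 12.96 to 13.078 in wild type, with SBPASE at -0.28 ± 0.08 (adjusted p = 0.0965) and the other 4 between -0.12 and 0.08. None of these root and leaf markers was near the bottom of the range, but several were near its top. Averages over all arrays ran from 10.11 for NAI2 to 13.99 for RCA, with PYK10 at 13.37, LHCB4.1 at 13.35 and LHCB4.2 at 13.19. Whether such bright probe sets would show a shift in tissue shares was not tested. The part that tissue shares have in the falls of EXPA7 and EXPA18 was not tested either.

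Over the 6 arrays, EXPA18 followed EXPA7 with a Pearson correlation of 0.993. Among the members, EXPA21 followed the pair most closely (0.872 with EXPA7 and 0.915 with EXPA18), then EXPB1 (0.797 and 0.774), while EXPA9 did not (-0.07 and -0.10). These values describe 6 arrays that fall into the genotypes, and they carry mainly the difference between genotypes and the low wild-type replicate 1. Of 5919 other single-gene probe sets brighter than the median, the 5 most like the pair were IQD24, Cpn60beta4, SAT32, AT1G30070 and AT1G62480, with mean correlations of 0.995 to 0.996.

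All 5 were lower in actin2-5 on each array than on any wild-type array, as were 10.8% of all probe sets. They were picked by their correlation with the pair on these same arrays, so the direction and the lack of overlap follow from the choice. Each fell by less than the pair. AT1G62480 fell by 0.45 on the log2 scale (limma adjusted p = 0.0284), a call that ended with the 25S covariate (adjusted p = 0.152) and without any single array other than wild-type array 1 (adjusted p = 0.0653 to 0.146). IQD24, which encodes a calmodulin-binding IQ-domain protein, was at -0.37 (adjusted p = 0.0623), and passed with repeated quantile normalization, centring, array weights or wild-type replicate 1 left out (adjusted p = 0.0255 to 0.0461). AT1G30070 was at -0.33 (adjusted p = 0.0836), and passed without wild-type replicate 1 (adjusted p = 0.0387). Cpn60beta4, a chaperonin gene, was at -0.28 and SAT32 at -0.24 (adjusted p = 0.116 and 0.18).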

How the data were processed

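The deposited table holds log2 expression values per ATH1 probe set, made by the authors with RMA in the affy package, per the submitters' processing notes. No version, chip definition or genome build is given in the sources used here, and no coordinates are printed. The values run from 3.08 to 14.15. RMA removes array-wide differences in RNA amount and understates changes of dim probe sets. Of 22810 probe sets, 64 AFFX controls were left out and 22746 tested. The platform annotation gives 1 gene symbol to 13513 of them and several to 503, and does not list 8730 (38.4%). Symbols were updated through RefSeq's TAIR10.1 table, which held 13436 of the single-gene probe sets.

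The comparison used the two-sided test of limma 3.58.1 (functions lmFit and eBayes, R 4.3.3). P-values were adjusted by the Benjamini-Hochberg method over all 22746 probe sets, and an adjusted p under 0.05 was a call. Log2 changes are actin2-5 minus wild type. The number of arrays, 3 per group, limits the precision. The procedure was tested on simulated data. The members, 6 other gene lists and the alternatives were chosen with earlier results of these data known. All members are described; of other lists, called genes and up to 3 more with the smallest p are named, and the 5 genes most like the pair by correlation. The values of 1 root hair gene are not reported here. Alternatives were repeated quantile normalization, median centring, array weights, a filter on dim probe sets, the 25S value as a covariate, the replicate number as a block, a robust prior with a trend, each array left out, a stricter threshold and the family by locus. Same-number arrays correlated at 0.062, 0.087 and 0.083 in their deviations from group means, so the numbers were not taken to pair samples. Figures used matplotlib 3.10.9 in Python 3.11.15.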

Additional observations from a re-analysis of the deposited data

Results flagged for a closer look

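Among the AFFX control probe sets, which were kept out of the comparison, U12639 read 7.88, 8.31 and 7.97 on the actin2-5 arrays, against 4.36, 4.47 and 4.43 on the wild-type arrays. In a separate limma fit over all 22810 probe sets, controls included, the genotypes differed by 3.63 on the log2 scale (adjusted p = 3.45e-07). This signal in a control drew attention. It names no expansin gene, and its cause was not tested.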

How the results depend on the processing

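Leaving out actin2-5 arrays 1 and 3, with high 25S signal, was added after the data were seen; it leaves 1 mutant array, assumed to vary like wild type. Called members, 3 of 14, numbered 0 with the 25S covariate (8 at an unadjusted p under 0.05 in limma) and 1 to 3 with 1 array left out. With the family by locus, 5 of 18 genes were called, 4 lower and 1 higher. The added genes were EXLB1 and EXLA1, which are not members. The 750 calls over all probe sets became 283 with the covariate, 103 without both arrays, 323 at an adjusted p under 0.01 and 290 to 896 with 1 array left out. With the replicate block, 5 members and 907 probe sets were called, EXPA15 and EXPB3 being the added members (adjusted p = 0.0321 and 0.0396). The numbers give only a hint of pairing, as each array correlated best with its own number in the other genotype. With 1 array left out EXPA18 lay between -1.15 and -0.83 and EXPA7 between -1.03 and -0.71. With the covariate they were at -0.95 and -0.87 (limma adjusted p = 0.062 and 0.0769), and without both arrays at -0.94 and -0.85. Their SEs were 0.15 and 0.14 in the main fit and 0.20 and 0.19 with the covariate. The 25S value averaged 9.4 in actin2-5 and 8.18 in wild type. At a given residual spread, a covariate that differs between groups widens the SE of the group difference. How much of the rise in SE this made up was not tested.

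Over 15 alternatives the family median lay between -0.38 and -0.22, and the pair minus the other members between -0.89 and -0.55. Their largest moves were 0.082 and 0.20, against SDs between arrays, pooled within genotypes, of 0.116 and 0.261. Without both arrays the calls of EXPA7, EXPA18, EXPA21, EXLA1, EXLB1, TRY, XTH21, XTH33 and AT1G62480 ended. Signs turned only for changes that were not called: EXPA16 at -0.0033 with centring, -0.0162 with array weights, -0.0325 with the covariate and -0.02 without both arrays; EXPA9 at -0.0032 with array weights, -0.12 with the covariate and -0.14 without both arrays; EXPB2 at 0.099 and 0.27, and EXLA3 at 0.037 without both arrays. With 1 array left out EXPA16 ranged from -0.045 to 0.05, EXPA9 from -0.097 to 0.14, EXPB2 from -0.29 to 0.13, FER from -0.15 to 0.077 and the EXP26 and EXPA22 probe set from -0.085 to 0.005. Causes were not tested.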
